A study of Mus musculus with 4 samples.

Results

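The cytochrome P450 family was read from single-colour arrays of cardiac mesenchymal progenitors (CMPs) and of CMPs transduced with reprogramming factors. Its members were taken by name: every non-control probe whose array gene name was Cyp followed by a family number, a subfamily letter and a gene number, with Cyp51 left out. This gave 113 of 55675 probes and 88 of 34843 gene names, and 49 of the 88 genes had a probe well above background on at least 1 array. The cells were Sca-1+ cells from the hearts of adult wild-type C57BL/6 mice. The CMP control (day 0) was untreated. The OSKM-CMPs had received Sendai virus carrying Oct4, Sox2, Klf4 and c-Myc and were collected at day 4, day 6 and day 8 in reprogramming medium without leukemia inhibitory factor. Each of the 4 conditions had 1 array, so no difference below has a replicate check or a test, and errors are those of the array's own error model. A control was measured only at day 0, so virus, factors, medium and time in culture cannot be told apart, and whether a sample pooled animals or cultures was not stated.

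Cytochrome P450 enzymes are haem proteins that insert an oxygen atom into a substrate, using electrons from P450 oxidoreductase in the endoplasmic reticulum or from ferredoxin in mitochondria. Members with fixed substrates make steroid hormones, bile acids, and active or inactive forms of vitamin D and retinoic acid. Families 1, 2 and 3 oxidize drugs and other foreign compounds, mostly in liver, and several of their mouse subfamilies are large tandem gene clusters. Family 4 and the Cyp2j genes act on fatty acids and arachidonic acid. Many P450 genes are switched on by receptors that bind the compound to be cleared, and Cyp1a1 and Cyp1b1 are the textbook targets of the aryl hydrocarbon receptor Ahr, which binds DNA with Arnt.

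The upstream sequences of 4 members were read from RefSeq (GRCm38.p6), 250 bases ending at the annotated start of each gene and written 5′ to 3′ on the strand of the gene. Cyp1a1 and Cyp1b1 are shown as the Ahr targets, and Cyp2f2 and Cyp2e1 as the members that were at least 2-fold higher at day 8 than at day 4. Capitals mark GCGTG, the core that Ahr and Arnt bind, or CACGC where the core lies on the other strand. Cyp1a1 lies at chr9:57697363-57697612 (plus strand), Cyp1b1 at chr17:79715062-79715311 (minus strand), Cyp2f2 at chr7:27119705-27119954 (plus strand) and Cyp2e1 at chr7:140763569-140763818 (plus strand).
Cyp1a1: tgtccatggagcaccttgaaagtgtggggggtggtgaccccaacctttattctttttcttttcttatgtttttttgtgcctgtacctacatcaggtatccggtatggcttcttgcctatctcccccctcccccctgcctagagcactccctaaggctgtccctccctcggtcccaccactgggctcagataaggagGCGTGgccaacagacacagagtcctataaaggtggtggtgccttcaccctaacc
Cyp1b1: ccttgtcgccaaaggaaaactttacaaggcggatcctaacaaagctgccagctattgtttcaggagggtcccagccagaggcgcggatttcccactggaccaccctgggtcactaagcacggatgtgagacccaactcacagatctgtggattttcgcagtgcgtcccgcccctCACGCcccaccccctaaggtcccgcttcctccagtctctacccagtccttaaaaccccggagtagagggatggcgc
Cyp2f2: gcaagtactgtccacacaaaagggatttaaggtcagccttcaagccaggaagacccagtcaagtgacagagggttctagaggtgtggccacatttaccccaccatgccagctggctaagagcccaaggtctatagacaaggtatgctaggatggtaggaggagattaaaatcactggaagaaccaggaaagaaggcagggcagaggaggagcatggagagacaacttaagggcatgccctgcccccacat
Cyp2e1: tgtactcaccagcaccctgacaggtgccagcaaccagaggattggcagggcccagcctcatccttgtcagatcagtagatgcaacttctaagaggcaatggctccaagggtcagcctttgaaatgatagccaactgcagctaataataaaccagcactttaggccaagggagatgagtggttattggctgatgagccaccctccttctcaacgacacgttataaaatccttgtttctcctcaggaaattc
Cyp1a1 and Cyp1b1 held 1 core each, and Cyp2f2 and Cyp2e1 held none. Of 32851 promoters in all, 28.2% held the core on either strand, and so did 15 (19.5%) of the 77 promoters found for 67 members. The longer Ahr element TNGCGTG was in 4.10% of all promoters and in 1 member promoter, that of Cyp2c68, a gene not well above background on any array. The direct repeat bound by PPAR and RXR receptors (DR1, as an exact consensus) was in 0.0335% of all promoters and in 0 member promoters. All counts cover only the 250 bases upstream of each start, and sequence further upstream was not searched. A match is only a description of these letters.

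The P450 family was detected less widely than the array as a whole. A gene counted as detected on an array if 1 of its probes was well above background there by the scanner software's flag. The control array detected 42 of the 88 members (47.7%), against 63.8% of all gene names. The day 4 array detected 43 (48.9%, against 64.5%), the day 6 array 41 (46.6%, against 63.9%) and the day 8 array 46 (52.3%, against 66.5%). At least 1 array detected 55.7% of the members and 70.4% of all gene names. All 4 arrays detected 36 members (40.9%, against 59.3%), and no array detected 39 (44.3%).

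Detection varied among the subfamilies. Of the 22 fatty acid and eicosanoid members 15 were detected, 14 of them on all 4 arrays. The exceptions were Cyp2j5, Cyp2j11, Cyp4a14, Cyp4a32, Cyp4f15, Cyp4f40 and Cyp4x1. Of the 37 family 2 members in the drug-oxidizing group 19 were detected. All 5 Cyp2b genes, 7 of the 13 Cyp2c genes, Cyp2a12, Cyp2a22, Cyp2d10, Cyp2d34, Cyp2g1 and Cyp2w1 were not. Of the 7 Cyp3a genes, which include the main drug oxidizers of liver, Cyp3a13 was detected and the other 6 were not. Among enzymes with fixed substrates, no array detected Cyp7a1 and Cyp8b1 of bile acid synthesis, Cyp11a1 and Cyp11b2 of steroid hormone synthesis, or Cyp24a1, Cyp26a1 and Cyp26c1, which degrade vitamin D and retinoic acid. Cyp1a2 completes the list of undetected members.

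**Figure D1:**
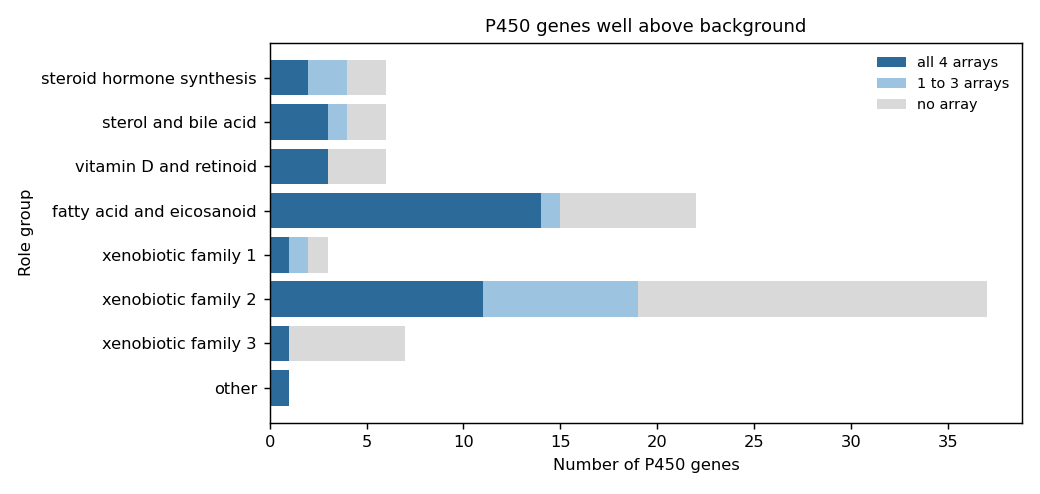
Number of P450 genes (x axis) in each role group (y axis), split by the number of arrays on which the gene was well above background. Of 22 fatty acid and eicosanoid genes 14 were above background on all 4 arrays, against 11 of 37 in xenobiotic family 2 and 1 of 7 in xenobiotic family 3.

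The other 13 detected members were above background on some arrays only. Cyp1a1, Cyp2f2, Cyp2c44 and Cyp27a1 were not well above background in the control and were so on all 3 OSKM arrays. Cyp2d13 and Cyp4b1 showed the opposite pattern. Cyp11b1 was above background only at day 4, and Cyp2a4 and Cyp2ab1 only at day 8.

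Levels are log2 signals relative to the 75th percentile of the array, so that 0 is that percentile. They are set against each other only within a gene, since probes differ in brightness. A gene was called when it differed from the control by at least 2-fold. Where a gene was dim on 1 of 2 arrays its difference is a bound, with the dim side set to the higher of its own level and the lowest level above background on that array (-5.22 in the control). The day 4 array had 8 of the 49 P450 genes higher (16.3%, against 8.7% of all 24538 genes measured) and 5 lower (10.2%, against 7.06%). The day 6 array had 7 higher (14.3%, against 9.77%) and 5 lower (10.2%, against 8.82%). The day 8 array had 9 higher (18.4%, against 11.7%) and 5 lower (10.2%, against 9.34%). On each day 4 of the higher genes rested on a bound. With normexp background correction and quantile normalization 2, 2 and 5 genes were higher and 3, 3 and 4 lower, beside 5.05% higher and 5.16% lower of all genes at day 8. The shares of all genes at day 4 and day 6 under that setting are not given here. Day 8 would give 7 higher and 7 lower with the array median in place of the 75th percentile, where the shares of all genes became 8.38% higher and 14.4% lower.

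**Figure D2:**
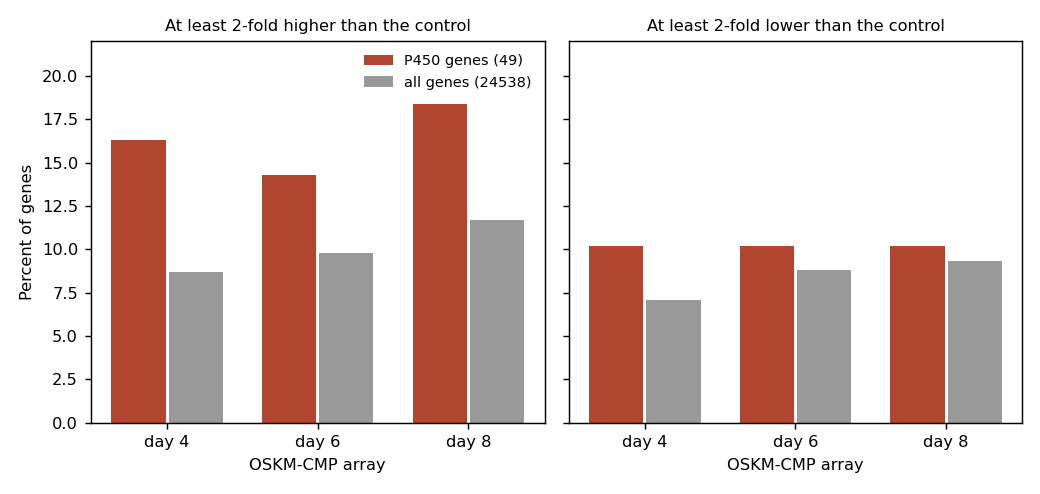
Percent of genes (y axis) at least 2-fold higher (left) or lower (right) than the control array on each OSKM array (x axis), for the 49 measured P450 genes and all 24538 measured genes. The P450 share of higher genes was 16.3%, 14.3% and 18.4%, against 8.7%, 9.77% and 11.7%, and the share of lower genes was 10.2% on each day.

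On at least 1 day 16 of the 49 P450 genes were called (32.7%, against 25.7% of all genes). Of the 49, 11 were higher (14.3% of all genes were) and 5 lower (11.4% of all genes were). The 3 days share 1 control array, so a low or high control value enters all of them. Of the 16, 6 were higher on all 3 days (Cyp1a1, Cyp27a1, Cyp2c44, Cyp2s1, Cyp3a13 and Cyp4f39) and 5 were lower on all 3 (Cyp39a1, Cyp26b1, Cyp2d11, Cyp2d12 and Cyp2d22). The share of all genes called on all 3 days was not computed, so these counts do not set the family apart. All medians of differences took dim levels as read and not as bounds. The median log2 difference of the 49 genes was 0.07 at day 4, 0.24 at day 6 and 0.27 at day 8. For all genes it was 0.00, -0.04 and -0.01. Over the 36 members above background on all 4 arrays it was 0.10, 0.21 and 0.20. The day 8 median was 0.0061 after quantile normalization and 0.0070 when arrays were scaled to their median.

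**Figure D3:**
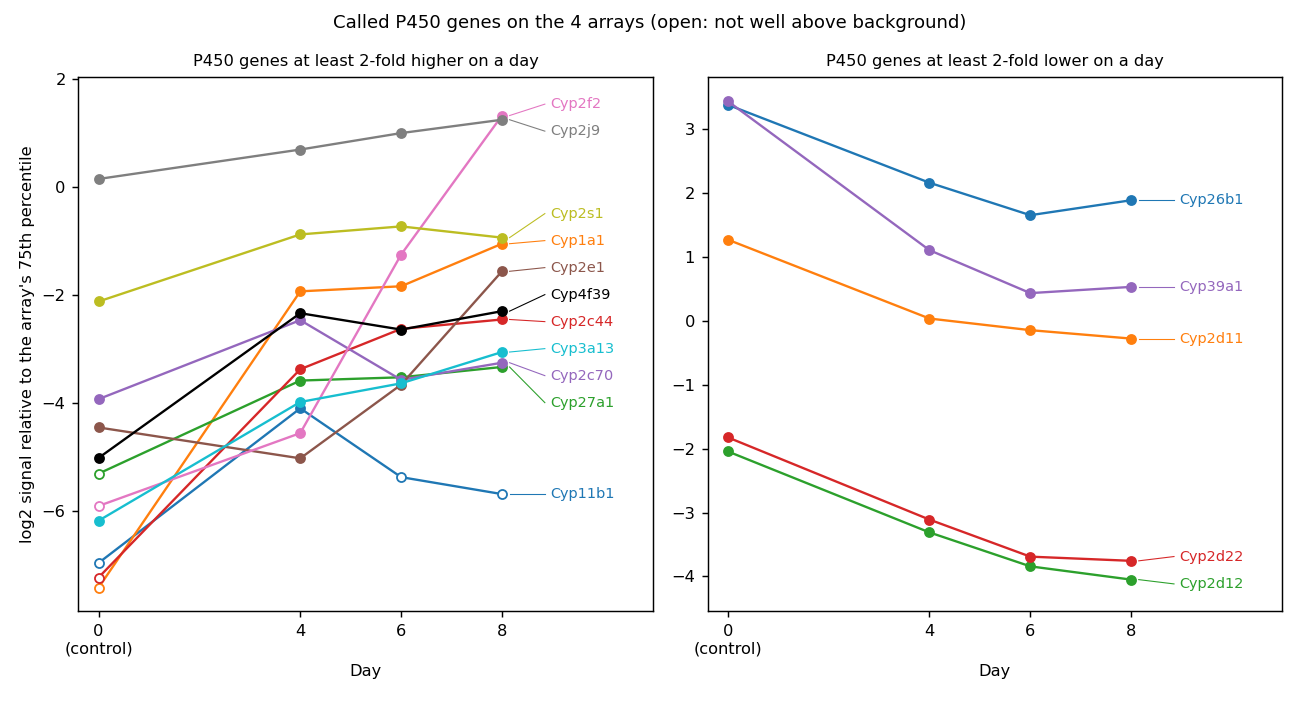
Log2 signal relative to the array's 75th percentile (y axis) against day (x axis) for each P450 gene called at least 2-fold higher (left) or lower (right) on a day, 1 array per point, open where the gene was not well above background. Cyp2f2 ran from -5.91 to 1.32 and Cyp39a1 from 3.44 to 0.53 between the control and day 8.

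In family 1, Cyp1a1 was far higher on all 3 OSKM arrays and Cyp1b1 was not called. Cyp1a1, which oxidizes polycyclic aromatic compounds (probe at mm9 chr9:57551535-57551594), read -7.42 in the control, where it was not well above background, then -1.94 at day 4, -1.84 at day 6 and -1.06 at day 8. It was at least 9.71-fold higher at day 4, at least 10.4-fold at day 6 and at least 17.9-fold at day 8. With the control level taken as read, the log2 differences were 5.48, 5.58 and 6.36. Normexp with quantile normalization gave 1.60, 1.61 and 2.17, also with the control as read. The bounds under that setting are not given. Day 8 was the highest of the 4 arrays. Cyp1b1, its relative in mesenchymal cells (mm9 chr17:80106547-80106606), was above background throughout. It read 5.18, 5.71, 5.64 and 6.04 and stayed under the 2-fold threshold, with a day 8 difference of 0.86 ± 0.20 (array error). After quantile normalization the difference was 1.13, past 2-fold.

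Of 26 listed receptor and Ahr pathway genes 22 were measured, with 4 higher and 1 lower at day 4, 3 and 1 at day 6, and 5 and 1 at day 8. The share higher was 18.2%, 13.6% and 22.7%, against 8.7%, 9.77% and 11.7% of all genes, and the share lower was 4.55% on each day, against 7.06%, 8.82% and 9.34%. Ahrr, the repressor that Ahr induces against itself, read -6.10, -1.07, -1.34 and -1.47. Its day 8 difference was 4.63, or 3.52 with its dim control probe raised to background. Tiparp, another Ahr target, read 1.32, 2.77, 2.78 and 2.99. The quinone reductase Nqo1 read 0.92, 2.40, 1.77 and 2.30, and was under 2-fold at day 6 only. Ahr itself differed by 0.44 at day 8 and its partner Arnt by -0.42. No array detected the drug receptor Nr1i2 or the liver regulators Nr0b2, Nr5a2 and Hnf4a. Nr1i3, from the same receptor list, was above background on all 4 arrays and differed by 0.83 at day 8, under 2-fold.

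**Figure D4:**
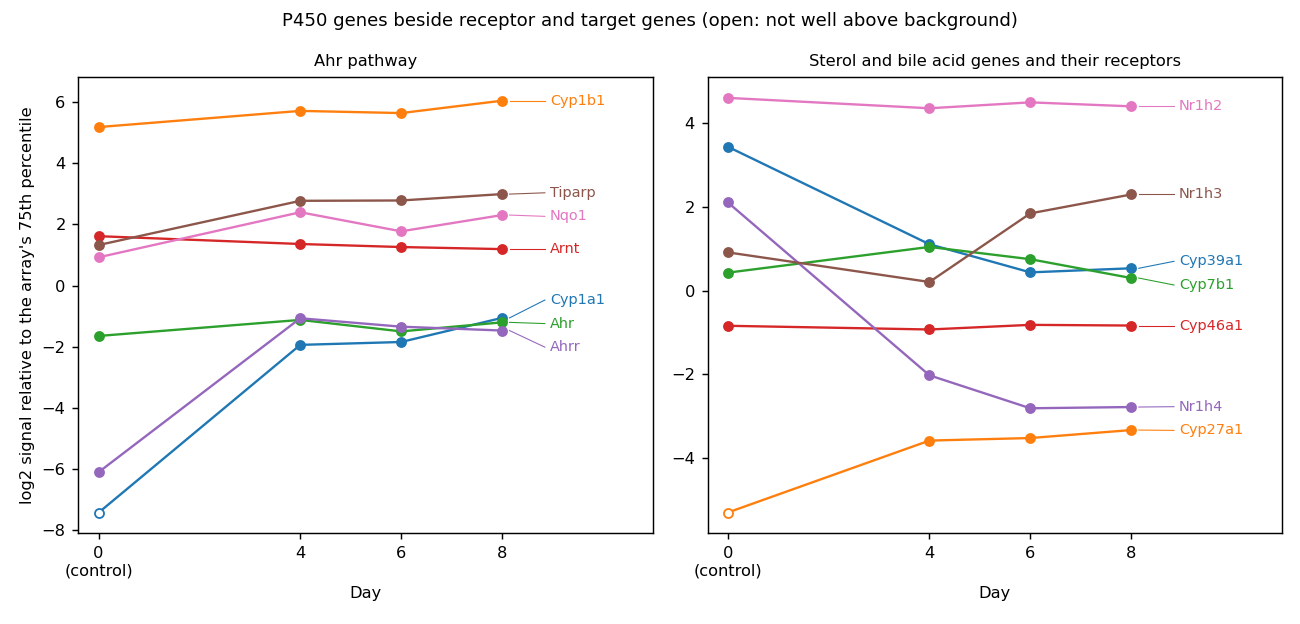
Log2 signal relative to the array's 75th percentile (y axis) against day (x axis), 1 array per point, open where not well above background, for Ahr pathway genes (left) and for sterol and bile acid P450 genes with their receptors (right). Cyp1a1 and Ahrr were low in the control (-7.42 and -6.10) and between -1.94 and -1.06 on the OSKM arrays, and Cyp39a1 and Nr1h4 were both lower on all 3 OSKM arrays.

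Family 2 held called genes in both directions. Cyp2f2, which activates naphthalene in mouse airway cells (mm9 chr7:27918570-27918629), read -5.91 in the control, below background, then -4.56, -1.26 and 1.32. Day 4 exceeded the control by at least 1.58-fold, day 6 by at least 15.6-fold and day 8 by at least 92.6-fold. Each array was higher than the one before. The log2 differences from the control were 0.29, 1.91 and 4.19 with normexp and quantile normalization, with the dim control as read. Day 8 was 58.7-fold above day 4, a difference measured on both sides.

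Cyp2e1 oxidizes ethanol, acetone and other small molecules. It had 2 probes and read -4.45, -5.03, -3.66 and -1.57 on average, 7.41-fold higher at day 8 than in the control and under 2-fold at day 4 and day 6. With normexp and quantile normalization the day 8 difference was 1.33 on the log2 scale. The probe at mm9 chr7:147960628-147960687 read -4.16, -4.27, -3.12 and -0.41. The probe at mm9 chr7:147956922-147956981 read -4.75, -5.78, -4.21 and -2.72 and was dim at day 4. Both probes were highest at day 8, by 3.75 and 2.03 over the control. Cyp2f2 and Cyp2e1 were the members at least 2-fold higher at day 8 than at day 4 (3.59% of all genes were) and than at day 6 (1.3% of all genes), and also at day 6 than at day 4 (1.72%). In the other direction Cyp11b1 and Cyp2c70 were at least 2-fold lower at day 6 than at day 4 (1.35% of all genes), Cyp11b1 also at day 8 (2.75%), and 0 members were lower at day 8 than at day 6 (0.587%).

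Cyp2c44, an arachidonic acid epoxygenase now named Cyp2c23 in RefSeq, read -7.23 in the control, below background, and -3.38, -2.63 and -2.46 on the OSKM arrays. It was at least 3.58-fold, 6.01-fold and 6.77-fold higher in turn. These bounds are for the processed signal. Normexp with quantile normalization gave log2 differences of 0.65, 1.00 and 1.00. That setting adds a fixed offset to every signal, which makes log2 differences of dim genes smaller, so these values do not test the bounds. Cyp2s1, a member found mainly outside liver, read -2.12, -0.88, -0.74 and -0.94, a 2.27-fold difference at day 8. On the log2 scale it became 0.91 with the array median as the scale and 0.73 with normexp and quantile normalization, both under 2-fold. Cyp2c70, which makes muricholic bile acids in mouse liver, was 2.75-fold higher at day 4 and under 2-fold later (-3.93, -2.47, -3.57 and -3.26). With normexp and quantile normalization the day 4 difference was 0.57.

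The 3 lower genes of family 2 were all Cyp2d genes, members of the subfamily that oxidizes many basic drugs. Cyp2d12 read -2.04, -3.31, -3.84 and -4.05, which made it 2.41-fold, 3.48-fold and 4.02-fold lower. Cyp2d22 read -1.82, -3.11, -3.69 and -3.76, and was 3.82-fold lower at day 8. Cyp2d11 read 1.28, 0.04, -0.14 and -0.27, and was 2.93-fold lower at day 8. With normexp and quantile normalization the day 8 differences were -0.95 for Cyp2d12, under 2-fold, -1.01 for Cyp2d22 and -1.35 for Cyp2d11. All 3 read lower on each array than on the one before. The Cyp2d cluster at mm9 chr15:82204377-82620634 holds 9 members, of which 7 were detected, 3 were lower and 0 higher. Of all genes 11.4% were lower and 14.3% higher on at least 1 day. Whether the cluster differs from these shares was not tested. Of the other detected genes of the cluster, Cyp2d13 was above background in the control alone. Cyp2d9, Cyp2d26 and Cyp2d40 differed by -0.24, 0.27 and 0.03 at day 8.

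The other clusters held 0 to 2 called members each. Of the 88 members 65 lay in 10 clusters with gaps of at most 500 kb, and these held 10 of the 16 called genes. The 65 include members that were not detected and could not be called, so these counts give no rate of calls inside clusters. Over all measured genes 25.7% were called on at least 1 day. In the cluster at mm9 chr7:26587495-27943565, 4 of 12 members were detected and 2 were higher (Cyp2f2 and Cyp2s1). The Cyp2c cluster at mm9 chr19:39116674-40228028 had 5 of 12 detected and 1 higher (Cyp2c70). The Cyp4f cluster at mm9 chr17:32629616-33062650 had 5 of 7 detected and 1 higher (Cyp4f39), and the Cyp2j cluster at mm9 chr4:95709356-96294231 had 4 of 6 detected and 1 higher (Cyp2j9). None of the 6 Cyp3a genes at mm9 chr5:146151322-146924544 was detected.

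Cyp3a13, which lies outside that cluster, read -6.18, -3.98, -3.64 and -3.06 as the mean of 2 probes, 8.70-fold higher at day 8. One probe was above background on all 4 arrays (-5.18, -4.62, -4.03 and -3.63) and the other was dim in the control (-7.18, -3.35, -3.25 and -2.48). With the dim value raised to background the gene's day 8 difference was 2.14 in place of 3.12. It was 0.70, under 2-fold, with normexp and quantile normalization. Both probes were higher on every OSKM array than in the control.

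Of the sterol and bile acid genes, Cyp39a1, which hydroxylates oxysterols on the way to bile acids (mm9 chr17:43887735-43887794), read 3.44, 1.11, 0.44 and 0.53. It was 5.04-fold lower at day 4, 8.04-fold at day 6 and 7.52-fold at day 8, with an error of 0.20 on the log2 difference of day 8. Most of the drop had been reached at day 4. Cyp27a1, the mitochondrial enzyme that hydroxylates the cholesterol side chain, was below background in the control (-5.31) and read -3.59, -3.53 and -3.34, at least 3.09-fold, 3.23-fold and 3.68-fold higher in turn. Its day 8 difference was 0.47 on the log2 scale, under 2-fold, with normexp and quantile normalization. Cyp7b1, which acts on side-chain oxysterols, read 0.43, 1.05, 0.75 and 0.30, and Cyp46a1, the cholesterol hydroxylase of neurons, read -0.84, -0.93, -0.82 and -0.83. Neither reached 2-fold. The bile acid receptor gene Nr1h4 read 2.11, -2.03, -2.81 and -2.78, and the oxysterol receptor gene Nr1h3 read 0.92, 0.21, 1.85 and 2.30.

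Cyp26b1, which degrades retinoic acid, was the one called gene of the vitamin D and retinoid group. It read 3.39, 2.17, 1.66 and 1.89 and was 2.33-fold, 3.32-fold and 2.82-fold lower. The vitamin D activating enzymes Cyp2r1 and Cyp27b1 differed by -0.05 and -0.04 at day 8. The vitamin D receptor gene Vdr differed by 0.94 and the retinoic acid receptor gene Rarb by -0.67, both under 2-fold.

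Of the steroid hormone genes, Cyp17a1, which leads toward androgens, read 3.17, 3.41, 3.43 and 3.70 and was not called. Cyp11b1, which completes corticosterone synthesis in the adrenal, was at least 2.17-fold higher at day 4 (-4.10, against -6.96 below background in the control) and was below background again at day 6 and day 8. With normexp and quantile normalization the day 4 difference was 0.24 on the log2 scale. Cyp21a1 and the oestrogen-making aromatase gene Cyp19a1 differed by 0.29 and -0.21 at day 8. Of 4 steroidogenic markers Star and Nr5a1 were above background on all 4 arrays and within 0.59 of the control on each day. Hsd3b1 and Lhcgr were not above background on any array.

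In the fatty acid and eicosanoid group 2 of the 15 detected genes were called on a day (25.7% of all genes were). Cyp4f39, which hydroxylates very long fatty acids in skin, read -5.02, -2.34, -2.64 and -2.30, and was 6.40-fold, 5.19-fold and 6.57-fold higher. The error of its day 8 difference was 0.35, and normexp with quantile normalization brought the difference to 0.97, under 2-fold. Cyp2j9 climbed across the arrays from 0.14 to 0.69, 0.99 and 1.24 and passed 2-fold only at day 8, at 2.14-fold. With the array median as the scale that difference was 0.83 on the log2 scale, under 2-fold. Below the threshold, Cyp4f14 differed by 0.92 at day 8, Cyp4v3 by 0.87, and Cyp4f13 and Cyp2j6 by 0.59 each. Cyp2u1 differed by -0.99, but its 3 probes ran from 0.08 to -2.24.

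**Figure D5:**
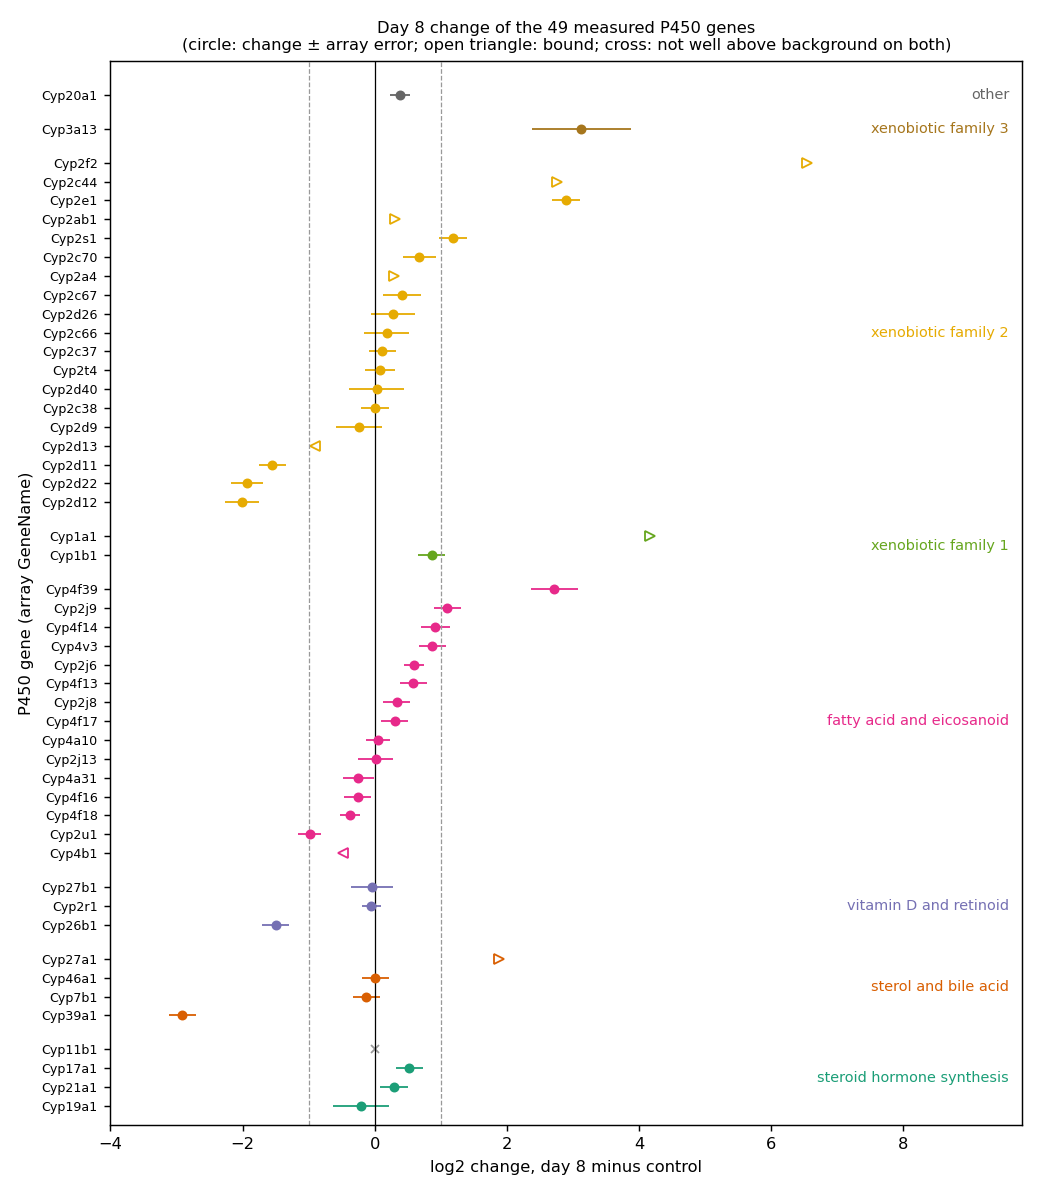
Log2 difference between day 8 and the control (x axis) for the 49 measured P450 genes (y axis) by role group, with dashed lines at 2-fold. Circles show the measured difference ± the array error, open triangles a bound and the cross a gene dim on both arrays; 9 genes lie past the right line and 5 past the left.

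The 33 members not called on any day included 25 that were above background on all 4 arrays. These 25 differed from the control by -0.81 to 0.66 at day 4, by -0.76 to 0.94 at day 6 and by -0.99 to 0.92 at day 8. The median array error of a day 8 difference was 0.21 over the measured members. Of 9 members with more than 1 measured probe, 5 had probes of opposite sign at day 8 and 4 had probes over 1 log2 unit apart (Cyp20a1, Cyp2e1, Cyp2u1 and Cyp3a13). In 6298 pairs of probes from different members 3 pairs had at least 40 identical bases (Cyp4a10 with Cyp4a31, and Cyp2c67 with Cyp2c68), and no probe of a called gene shared more than 29.

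The electron donors and haem enzymes serve the P450 enzymes as partners. Of 22 listed electron donor and haem genes 21 were measured, with 1 higher at day 4 and at day 6 and 0 at day 8, and 0, 1 and 1 lower. A single gene was 4.76% of the list, beside 8.7%, 9.77% and 11.7% of all genes higher and 7.06%, 8.82% and 9.34% lower. Their medians were 0.06, 0.17 and 0.05. P450 oxidoreductase (Por) read 4.72, 4.61, 4.52 and 4.60. The ferredoxin reductase gene Fdxr read 2.20, 3.28, 3.24 and 2.79, and Cyb5r1 read 2.07, 1.17, 0.90 and 0.72. Of the 3 P450 enzymes with other kinds of name, prostacyclin synthase (Ptgis) read 2.96, 1.90, 1.85 and 1.73 and was lower on all 3 days, thromboxane synthase (Tbxas1) was above background in the control alone, and Cyp51 differed by 0.31 at day 8.

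Markers of cell types were read beside the family. All 6 mesenchymal progenitor markers were above background on all 4 arrays, and Ly6a, which encodes Sca-1, differed by 2.69, Thy1 by -1.78 and Eng by -1.19 at day 8. Of 6 adipocyte markers 5 were higher on each day, all but Lep. The median differences over all 6 were 3.21, 8.41 and 9.28, with dim control levels taken as read and not as bounds. The summed signal of the 6, in units of the 75th percentile, ran from 2.49 in the control to 19.5, 126 and 311. The adipocyte regulator Pparg read 0.98, 4.63, 4.83 and 4.82. Of 5 hepatocyte markers 4 (Alb, Apoa1, Ttr and Fgb) were not above background on any array. Among 5 macrophage markers 1 was higher at day 8 (Cd68). Its difference was 1.56, or 0.97, under 2-fold, with its dim control probe raised to background. Among 4 endothelial markers 2 were lower (Cdh5 and Tek), and among 5 cardiomyocyte markers 1 was higher and 1 lower at day 8. The part of the adipocyte markers in the P450 differences was not tested. In bulk RNA, fewer cells of a type and less RNA per cell cannot be told apart.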

How the data were processed

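Total RNA from 4 samples was labelled with Cy3 and hybridised to Agilent SurePrint G3 mouse arrays. The authors deposited Feature Extraction files (version 10.7.3.1 per the file headers, 9.5.3 per the labels) with background-subtracted intensity, its error and flags per spot, and probe positions on mm9. They also deposited a log2 table made in GeneSpring, which equals the log2 intensity shifted by a constant per array (r = 1).

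Of 62976 spots per array, 3671 control spots and 87 to 106 outlier spots were left out, and none was saturated. Spots of a probe were averaged as log2, and the array's 75th percentile (a signal of 388 to 411) was subtracted. Between 56.6% and 59.6% of probes were well above background, by the majority of their spots. A gene took the mean of those probes that passed on any array. The number of arrays limits the precision. Every P450 gene called at 2-fold on a day was named, with full values for those at 4-fold or more and for the 3 with the highest control signal among genes above background on all 4 arrays (Cyp1b1, Cyp39a1 and Cyp26b1). Members, role groups, pathway lists and markers were chosen with earlier results of these data known. RefSeq names were matched by accession for 109 member probes and by symbol for 4. Motifs were searched on both strands; GCGTG was added after the longer element had been searched. Calls were run on simulated data in which only bright genes were shifted, by 4-fold. Dim genes, bounds and differences near 2-fold were not tried there. Python 3.11.15 with numpy 2.4.6 and pandas 2.3.3, and R 4.3.3 with limma 3.58.1 (normexp, offset 50), were used. Alternatives covered background correction, scaling, the filter on dim probes, the probe rule and the fold.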

Additional observations from a re-analysis of the deposited data

How the results depend on the processing

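No P450 gene called on a day turned its direction on that day under the alternatives run for single genes. These were normexp background correction followed by quantile normalization, plain quantile normalization, scaling to the array median, other treatments of dim probes, and the brightest probe. Those for single genes at day 4 and day 6 were added after seeing the data. The authors' log2 table was also run, but it differs only by a constant per array and could not turn a called gene. Scaling to the array median also shifts each array by a constant, by less than 2-fold, and could not turn one either. Raising dim values to background could not turn a call that was already a bound. These settings therefore say nothing about the direction of such calls. Other folds were run for counts and shares of genes only. The counts of P450 genes stayed within 1.5 times of those reported in 51 of 66 recalculations. The median ran from -0.07 to 0.14 at day 4, from 0.03 to 0.24 at day 6 and from 0.0061 to 0.28 at day 8, and at day 4 it was below 0 with normexp (-0.02) and with the array median as the scale (-0.07). With normexp and quantile normalization, 2, 2 and 5 genes were higher at day 4, day 6 and day 8, 3 were lower at day 4 and at day 6, and the day 8 median was 0.017. Under that setting the day 8 differences of Cyp2f2, Cyp1a1, Cyp2e1 and Cyp39a1 were 4.19, 2.17, 1.33 and -2.67, and Cyp4f39 (0.97), Cyp3a13 (0.70), Cyp2s1 (0.73), Cyp27a1 (0.47) and Cyp2d12 (-0.95) fell short of 2-fold. The day 8 median was 0.0061 after quantile normalization, 0.0070 when scaled to the array median (the median of all genes was then -0.28) and 0.015 without a filter on dim probes. With only probes above background on all 4 arrays, which leaves 36 genes, 3, 4 and 5 were higher. At a fold of 1.5, 9 genes were lower at day 4 and 8 at day 6, and 12 were higher at day 6 and 15 at day 8. At a fold of 3, 5 were higher at day 4, 1 was lower at day 4 and 3 were lower at day 8. The share of all genes called can move with the setting too. It is not given beside the counts in this section, so they do not compare the family with the array. Differences in dim genes depend on the background setting. The normexp setting adds a fixed offset to every signal, which by itself makes log2 differences of dim genes smaller. How much of each gene's shift came from the offset was not tested. No paired analysis was possible because the design has 1 array for each condition, and for the same reason no replicate could be left out.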
